A study of Arabidopsis thaliana with 25 samples.

Results

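The data described here are the root transcriptomes of the Arabidopsis thaliana mutant phf1 from pots of low P soil that received added phosphate (low+P) and from low P pots without it. They comprised 5 of the 25 root RNA-Seq libraries of the series that were analysed, 2 from low+P and 3 from low P, chosen by the group names that head the deposited counts. The question was which genes differed in phf1 roots between low+P and low P pots. All plants were 8 weeks old, in the Col-0 background, and grown in the same greenhouse in field soil from plots with no P fertilizer. The low+P pots received 12.6 mg of P in several applications as a mixture of potassium phosphates, so that added P and added potassium cannot be told apart. The labels place the low+P replicates in soil of plots 1 and 4, and the low P replicates in soil of plots 1, 4 and 7. Col-0, the wild type, served for comparison with 2 low+P and 3 low P libraries. The double mutant phr1 phl1, with 1 low+P and 2 low P libraries, entered the fit to help estimate the spread. Its libraries also entered the normalization and the filter on low counts, which set the genes that were tested. The phf1 libraries from soils of medium P and high P plots, 3 each, are quoted for single genes and enter the mean of the 11 phf1 libraries used as a baseline. The labels give no allele for phf1, so it was treated as a mutant of unstated position.

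Plants short of phosphate switch on a phosphate starvation response (PSR). The MYB-related transcription factors PHR1 and PHL1 bind a short promoter element, P1BS, and raise genes for phosphate transporters, acid phosphatases, replacement of phospholipids by galactolipids and sulfolipids, and SPX proteins that restrain PHR1 when phosphate is plentiful. PHF1 is a protein of the endoplasmic reticulum that PHT1 phosphate transporters need to leave it for the plasma membrane, and phf1 mutants take up less phosphate. PHO2, an enzyme that marks phosphate exporters and transporters for degradation, is held down by a microRNA that starvation induces.

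The phf1 libraries had 5734640 and 4793244 counted reads in low+P and 3135517, 2773753 and 5504952 in low P. The replicate numbers could not be linked to the libraries, so they are called A and B in low+P and A, B and C in low P, in the order of the table and without meaning. Levels are counts scaled to the total of each library (CPM), and 1 CPM was between 2.77 and 5.73 reads. Library C of low P stood apart from its group. Its log2 levels had a Pearson correlation across genes of 0.867 with low P A and 0.878 with low P B, but 0.951 with low+P A. Low+P B correlated at 0.960 with both low P A and low P B, and at 0.943 with low+P A. The first principal component, with 59.2% of the variance over the 5 libraries, placed low+P A and low P C on the same side and the other libraries on the opposite side. Genes are not independent replicates, and these correlations describe the libraries. Each library pair differed by more than sampling noise, with a median chi-square per gene of 1.64 to 6.97 beside the 0.455 of sampling alone, and all were kept as separate replicates.

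Some genes of root cell types followed this separation of the libraries. The root hair genes COBL9 and EXPA7 had 2.96 and 2.09 CPM in low+P A and no read in low+P B, against 8.90 and 6.36 CPM in low P C and no read in low P A and B. CASP1, which builds the Casparian strip of the endodermis, had 25.3 and 1.67 CPM in low+P roots, against 0.319, 0.721 and 29.6 CPM in low P. These 3 genes were thus high in the same library of each group and near or at 0 in the others. Over the 12 root tissue markers tested, 5 were higher and 7 lower in low+P. Their summed level was 1301 and 1382 CPM in low+P roots, against 1007, 2188 and 2243 CPM in low P. Most of this sum came from PYK10, a root beta-glucosidase. The sum did not follow the 3 genes above, since low P B lay near low P C. The deviation of these markers from the mean of all 11 phf1 libraries (average log2 scale) was 0.40 and -1.0 in low+P, against -1.27, -1.18 and 0.81 in low P. Their median log2 fold change was -0.06, and it was 1.41 without low P C and -1.17 without low+P A. Genes of photosynthesis, which mark green tissue, summed to 547 and 454 CPM in low+P roots against 202 to 529 CPM in low P over the whole list of 25, and none of the 23 tested was at 0 in any of the 5 libraries. In bulk roots, a change in the share of a cell type and a change of RNA per cell cannot be told apart. The part of cell type composition in the results was not tested.

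**Figure D1:**
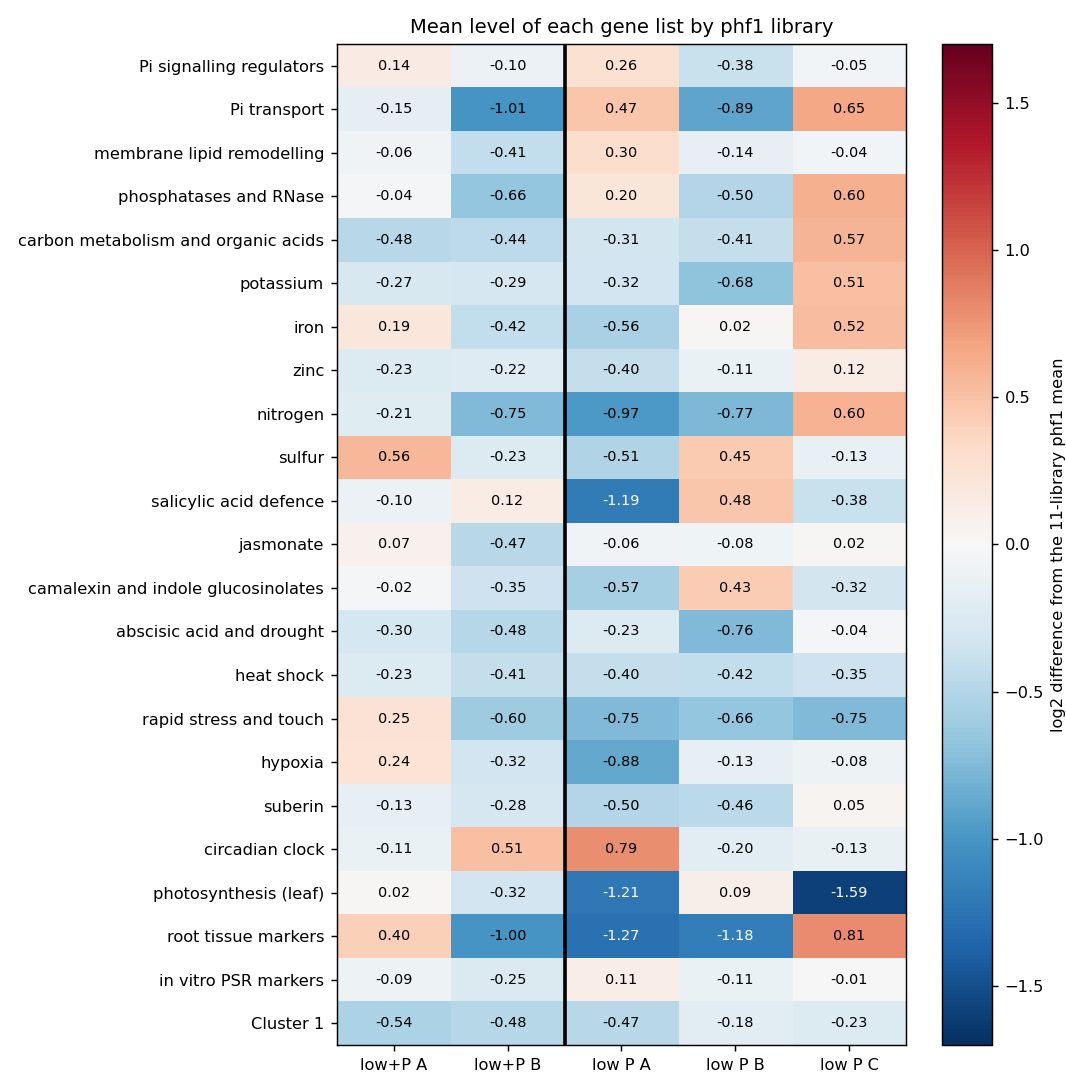
Mean level of each gene list (rows) in each phf1 library (columns, low+P left of the black line and low P right of it), as the log2 difference from the mean of the 11 phf1 libraries, averaged over the genes of the list. Root tissue markers stood at 0.40 in low+P A and 0.81 in low P C and between -1.27 and -1.0 in the other libraries, and photosynthesis genes at -1.21 and -1.59 in low P A and low P C.

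The genes mutated in the study's lines were examined first. PHF1 (AT3G52190) had 16.9 and 14.6 CPM in low+P roots, against 20.4, 9.73 and 17.3 CPM in low P. The groups overlapped, and the log2 fold change (low+P over low P, as in all that follow) was -0.00 (95% interval -0.96 to 0.96). Since the position of the mutation was not given, PHF1 reads do not check the genotype. PHR1 (AT4G28610) had 70.3 and 62.4 CPM in low+P roots, against 64.4, 70.7 and 61.9 CPM in low P (log2 fold change 0.03, 95% interval -0.39 to 0.46), and the groups overlapped. PHR1 overlaps AT4G28600 on the opposite strand, and the libraries were not stranded, so reads of the pair are not separable. PHL1 (AT5G29000) had 63.3 and 77.8 CPM in low+P roots, against 87.1, 63.5 and 48.1 CPM in low P, with overlapping groups.

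Across all genes, no gene differed between low+P and low P in phf1 roots at the threshold used. Of 18830 genes that passed the filter on low counts, the quasi-likelihood test of edgeR called 0 after Benjamini-Hochberg adjustment, at an adjusted p below 0.1 (0%), and the smallest adjusted p was 1. Without adjustment, 169 genes (0.898%) had a p below 0.05, with 76 (0.404%) higher and 93 (0.494%) lower in low+P. DESeq2 and limma-voom also called 0 genes. The groups did not overlap in CPM for 1046 genes above (5.55%) and for 1263 genes below (6.71%). The spread between libraries was wide, with a biological coefficient of variation of 0.426 and a median standard error of the log2 fold change of 0.427. The median absolute log2 fold change was 0.23, and 877 genes exceeded 1. The absence of calls does not show that the soils gave the same transcriptome.

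The lists below were read against these percentages. They say how many tested members lay higher or lower. How many passed an unadjusted p of 0.05, and for how many the groups did not overlap, is given for some lists only. A list without such a count may still hold members whose groups did not overlap. No member of any list reached an adjusted p below 0.1 (edgeR, Benjamini-Hochberg), and the adjusted p was 1 for every gene of the comparison within phf1 named below.

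Genes that take up and move phosphate lay mostly lower in low+P. Of 11 tested Pi transport genes, 10 were lower and 1 higher, with a median log2 fold change of -0.91, beside -0.02 over all genes. The list includes PHF1, the gene mutated in this line, which counted as lower although its log2 fold change was -0.0003. At an unadjusted p below 0.05 there was 1 gene, and the groups did not overlap for 3, all lower. The median was -0.19 without low P C, with 7 of 11 lower, -0.30 without low+P B and -1.81 without low+P A, so that its size rested on single libraries. Without the library labelled phr1 phl1 low+P, an alternative chosen after seeing the data, 8 genes passed the filter, the median was -0.44 and 0 had an unadjusted p below 0.05. With the 5 phf1 libraries alone 9 passed, the median was -0.56 and again 0 had such a p. PHT1;8 was among the genes that did not pass the filter in those fits. The deviation of the list from the mean of the phf1 libraries was -0.15 and -1.01 in low+P, against 0.47, -0.89 and 0.65 in low P, and low P B thus lay among the low+P libraries.

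PHT1;8 (AT1G20860), a member of the PHT1 family of plasma membrane phosphate transporters, was the gene of this list with an unadjusted p below 0.05. It had 1 and 1 reads in low+P, against 14, 2 and 10 reads in low P. As a ratio of reads summed over each group, it was 12-fold lower in low+P, with an exact 95% interval of 3.00 to 104 that covers counting error only. The fitted log2 fold change was -3.44 (SE 1.09, adjusted p = 1 in edgeR). PHT1;9 (AT1G76430), its closest relative in the family, had 6 and 2 reads in low+P, against 12, 3 and 14 reads in low P. It was 3.34-fold lower by summed reads (1.49 to 8.46), with a fitted log2 fold change of -1.72 (SE 0.887, adjusted p = 1 in edgeR). For both genes every low+P library lay below every low P library, after scaling to library size and at levels of a few reads. For PHT1;9 this separation was narrow, with 1.05 CPM in low+P A against 1.08 CPM in low P B, and its reads overlapped. In the other soils of the series, PHT1;8 had 7.09, 0.965 and 0.518 CPM in phf1 medium P and 1.31, 0.353 and 1.54 CPM in phf1 high P, a range as wide as that within low P.

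PHT1;1, PHT1;4 and PHO1 overlapped between the groups. PHT1;1 (AT5G43350), a main uptake transporter of roots, had 89.5 and 26.1 CPM in low+P roots, against 133, 21.6 and 170 CPM in low P. For PHT1;4 (AT2G38940) the level was 8.89 and 2.29 CPM in low+P roots, against 5.10, 0.721 and 18.9 CPM in low P. Both genes were high in low+P A, low P A and low P C and low in low+P B and low P B. PHT1;1 and PHT1;2 share long stretches, since 40.4% and 43.4% of their 50-base stretches also occur elsewhere in the TAIR10.1 genome, and the split of reads between them is uncertain. PHO1 (AT3G23430), which loads phosphate into the xylem, had 582 and 387 CPM in low+P roots, against 506, 374 and 471 CPM in low P, with a log2 fold change of 0.11 (95% interval -0.54 to 0.77). AT1G63010 had 131 and 111 CPM in low+P roots, against 169, 148 and 140 CPM in low P, and was the third gene whose groups did not overlap. Its log2 fold change was -0.32 with an interval of -0.88 to 0.24. PHT1;6, PHT1;7 and AT4G11810 had no read in any of the 5 libraries and PHT1;5 too few for the test.

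The regulators of the PSR were split evenly. Of 15 tested, 8 were higher and 7 lower in low+P, with a median of 0.02, 0 at an unadjusted p below 0.05 in either direction, and 1 whose groups did not overlap. That gene was PHO2 (AT2G33770), with 1574 and 1198 CPM in low+P roots, against 749.8, 1145 and 626 CPM in low P. Its log2 fold change was 0.74 (SE 0.353, adjusted p = 1 in edgeR), and the highest low P library lay just under the lowest low+P library. In phf1 high P, PHO2 had 1752, 502 and 1512 CPM, and in Col-0 1541 and 1442 CPM in low+P roots against 735, 1363 and 1151 CPM in low P. SPX1 (AT5G20150), an SPX protein and a common reporter of the PSR, had 65.0 and 27.7 CPM in low+P roots, against 92.2, 27.4 and 40.5 CPM in low P, with overlapping groups and a log2 fold change of -0.23. MYB62, a transcription factor gene, had 6 reads in low P C and none in the other 4 libraries, so that its difference rested on low P C alone. The list held 16 genes, and SPX3 had too few reads for the test.

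Genes of membrane lipid remodelling lay slightly lower in low+P. Of 15 tested, 12 were lower and 3 higher, with a median of -0.30, 0 at an unadjusted p below 0.05 and 3 with groups that did not overlap, all lower. These 3 were the galactolipid synthase genes MGD2, DGD1 and DGD2. DGD1 (AT3G11670) had 18.3 and 23.4 CPM in low+P roots, against 31.3, 25.2 and 26.9 CPM in low P, with a log2 fold change of -0.40 (SE 0.281). DGD2 had 15.9 and 17.7 CPM in low+P roots, against 18.2, 19.8 and 20.9 CPM in low P, and MGD2 had 4.19 and 5.22 CPM against 6.70, 7.93 and 5.81 CPM. The gaps between the groups were small beside the spread within them. PLDP2 (AT3G05630), the phospholipase D gene also called PLDZ2, had 10.3 and 11.9 CPM in low+P roots, against 29.3, 17.3 and 9.08 CPM in low P, with low P C below both low+P libraries (log2 fold change -0.74, SE 0.564). PLDP2 overlaps AT3G05640 on the opposite strand. SQD1 and SQD2, of sulfolipid synthesis, overlapped between the groups with log2 fold changes of -0.20 and -0.43. The median of the list ran from -0.45 to -0.16 when each library was left out in turn.

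**Figure D2:**
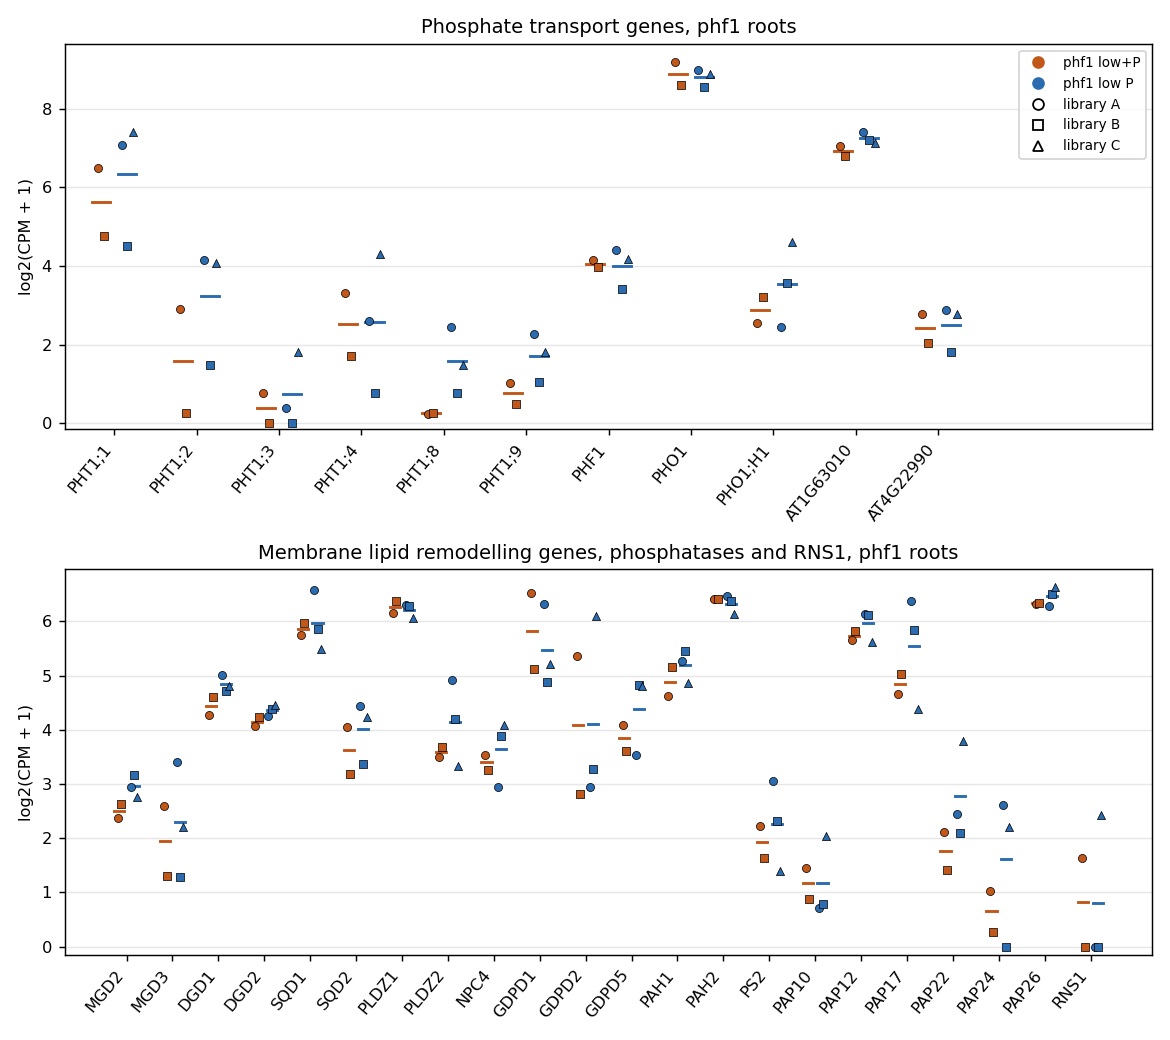
Level of each tested Pi transport gene (upper panel) and of each tested membrane lipid remodelling, phosphatase and RNase gene (lower panel) as log2(CPM + 1) in each phf1 library, with low+P in orange left of low P in blue, markers for libraries and bars at the mean of the log2 values. PHT1;8 and PHT1;9 lie lower in both low+P libraries at a few reads, whereas PHT1;1 and PHO1 overlap between the groups.

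All 7 tested genes of phosphatases and the RNase RNS1 had a negative log2 fold change, with a median of -0.52, but 0 had an unadjusted p below 0.05 and the groups overlapped for all 7. The median was -0.91 without low P B, with 1 gene at an unadjusted p below 0.05, and -0.35 without low+P B, with 5 of 7 lower. PAP17 (AT3G17790), a purple acid phosphatase, had 24.2 and 31.7 CPM in low+P roots, against 82.6, 56.6 and 20.0 CPM in low P, with low P C lowest of all 5. PAP22 (AT3G52820) had 3.31 and 1.67 CPM in low+P roots, against 4.46, 3.24 and 12.9 CPM in low P (log2 fold change -1.43, SE 0.751). PAP17 and PAP22 thus differed in which low P library was highest. PAP24 (AT4G24890) had 6 and 1 reads in low+P, against 16, 0 and 20 reads in low P, and it overlaps AT4G24880 on the opposite strand. PAP26, the abundant phosphatase of the vacuole and cell wall, had 79.3 and 79.9 CPM in low+P roots, against 77.2, 90.1 and 97.9 CPM in low P, with an interval of -0.51 to 0.27 on the log2 scale. The list held 12 genes, of which PAP5, PAP11 and PAP14 had no read in these libraries.

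The list of carbon metabolism and organic acids held genes that release malate and citrate or recycle phosphoenolpyruvate, and also STOP1, LPR1, LPR2 and PDR2. It gave 9 lower and 2 higher of 11, with a median of -0.49 and 0 at an unadjusted p below 0.05. The groups did not overlap for 2, both lower. AT1G51340, a MATE efflux protein, had 3.84 and 4.80 CPM in low+P roots, against 9.25, 6.49 and 9.08 CPM in low P (log2 fold change -0.92, SE 0.427). Its log2 fold change was -0.91 in Col-0, and the difference of the responses was -0.01 (SE 0.565). PDR2 had 117 and 120 CPM in low+P roots, against 143, 134 and 147 CPM in low P. ALMT1 (AT1G08430), the malate channel of roots, had 5 and 4 reads in low+P, against 1, 0 and 189 reads in low P. Its difference lay in low P C alone, and its fitted log2 fold change was -3.69 with this library and 2.13 without it.

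Since the added salt carried potassium, genes of potassium uptake and transport were read in the same way. Of 13 tested, 10 were lower and 3 higher in low+P, with a median of -0.13, 0 at an unadjusted p below 0.05 and 1 whose groups did not overlap. That gene was CHX17 (AT4G23700), a cation/proton exchanger, with 2.79 and 7.09 CPM in low+P roots, against 22.3, 9.73 and 14 CPM in low P (log2 fold change -1.63, SE 0.798). In phf1 medium P its 3 libraries had 89.7, 3.17 and 3.45 CPM, so that a range of this size also lay within a group. HAK5 (AT4G13420), the high-affinity potassium transporter that potassium shortage induces, had 0 and 1 reads in low+P, against 0, 0 and 36 reads in low P. All of its excess came from low P C, without which its fitted log2 fold change was 2.1. AKT1, the main inward potassium channel of roots, had 278 and 258 CPM in low+P roots, against 356, 310 and 175 CPM in low P, with overlapping groups. The channel gene SKOR and the transporter gene NPF7.3, both of xylem loading, had 19.0 and 3.55 CPM and 41.7 and 78.7 CPM in low+P roots, against 0.957, 0.361 and 25.4 CPM and 19.1, 19.1 and 220 CPM in low P. Both were highest in low P C.

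The in vitro PSR markers, a set defined outside these libraries in plants on agar, gave the broadest view of the response. Of 192 listed genes 165 were tested, of which 128 (77.6%) were lower and 37 higher after P addition, where 52.6% of all genes were lower. The median log2 fold change was -0.23, beside -0.02 over all genes and -0.48 for the same markers in Col-0. The median ran from -0.31 to -0.18 when each phf1 library was left out in turn, and was -0.26 without low P C, with 117 of 164 lower. The share of lower markers was smallest without low P A, at 101 of 165 (61.2%), beside 52.9% of all genes in that fit. At an unadjusted p below 0.05 there were 0 lower markers and 1 higher, where 0.494% and 0.404% of all genes passed. The groups did not overlap for 15 markers below (9.09%) and 3 above (1.82%), beside 6.71% and 5.55% of all genes. Counted by gene, the markers leaned to lower values in low+P as a set, by amounts that were small for each gene. The genes are not independent replicates. With limma-voom 107 of 165 were lower (64.8%), beside 47.9% of all genes. The deviation of the markers from the mean of the 11 phf1 libraries was -0.09 and -0.25 in low+P. It was 0.11, -0.11 and -0.01 in low P, with low+P A and low P B in reverse order. This deviation ran from -0.16 to 0.39 in phf1 medium P and from -0.14 to 0.28 in phf1 high P. The marker with an unadjusted p below 0.05, AT2G43535, which encodes a knottin-type protein, went the other way, with 135 and 108 CPM in low+P roots against 40.2, 23.1 and 77.6 CPM in low P (log2 fold change 1.4, SE 0.431).

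Cluster 1 is a list of 123 genes that the study chose on the low P and low+P libraries of the 3 genotypes, these 5 among them, and is therefore not independent evidence of a direction. The paper describes these genes as high only in wild type in low P. A large fall in Col-0 beside a small change in phf1 thus largely follows from that choice. In phf1 85 of the Cluster 1 genes lay lower and 38 higher in low+P. Their median log2 fold change was -0.29, where the same genes had a median of -2.09 in Col-0. At an unadjusted p below 0.05 there were 11 lower and 1 higher, where 0.494% and 0.404% of all genes passed. The groups did not overlap for 29 below (23.6%) and 2 above (1.63%), beside 6.71% and 5.55% of all genes. These counts share the limit that the list was chosen on these libraries. The 3 with the smallest p were RER1, EMB2785 and AT4G29690. RER1 (AT5G22790), a reticulata-related protein, had 12.6 and 10.4 CPM in low+P roots, against 16.3, 28.1 and 25.8 CPM in low P (log2 fold change -0.99, SE 0.327). EMB2785 (AT2G31060), of the elongation factor family, had 35.7 and 43.2 CPM in low+P roots, against 60.0, 66.7 and 55.6 CPM in low P (-0.60, SE 0.207). AT4G29690, an alkaline-phosphatase-like protein, had 11.7 and 2.92 CPM in low+P roots, against 23.3, 23.4 and 28.3 CPM in low P (-1.76, SE 0.617). In each of these the low+P libraries lay below all of low P.

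The element that PHR1 binds was looked for in the 250 bases before the annotated start of each gene in TAIR10.1, on both strands, as GNATATNC, which reads the same on either strand. It was present for 26% of the 192 in vitro PSR markers, for 6.5% of the 123 Cluster 1 genes, for 5.43% of the tested genes and for 5.46% of all protein-coding genes of the nuclear chromosomes. Of the lists on phosphate, 6 of 12 phosphatase and RNase genes had it, 7 of 17 of membrane lipid remodelling, 5 of 16 of signalling, 2 of 15 of transport and 2 of 12 of carbon metabolism. These counts cover all listed genes, tested or not. The 6 phosphatase genes with it include PAP5, PAP11 and PAP14, which had no read in the phf1 libraries compared. PAP17, PAP22 and PAP26 had no match. The sites of 4 genes named here are shown because they carry the element itself, in capitals, on the strand of the gene:
PHT1;2 (chr5:17415646-17415673, plus strand): atataaatatGGATATACccttaagatt
PLDP2 (chr3:1635004-1635031, plus strand): taaccaagttGCATATACacggcagggt
PAP24 (chr4:12814592-12814619, minus strand): gaaactgttaGAATATTCctgactaaag
PPC3 (chr3:5024988-5025015, plus strand): cgttcttttaGAATATTCttctgctctt
PHT1;8 and PHT1;9, the transporters with the smallest p, have no match in this window, and neither do PHO2 and PHF1. PPC3 (AT3G14940), a phosphoenolpyruvate carboxylase, had 25.1 and 25 CPM in low+P roots, against 20.1, 31.4 and 89.9 CPM in low P. The groups overlapped for each of the 4 genes shown. A match is a description of these letters and not evidence of binding in these roots.

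Among lists on other nutrients, most iron and nitrogen genes lay lower in low+P, and their sizes turned on low P C. Of 18 iron genes 17 were lower, with a median of -0.48, 1 at an unadjusted p below 0.05 and 1 whose groups did not overlap, and without low P C 10 of 18 were lower, with a median of -0.11. The gene that passed was bHLH39 (AT3G56980), a transcription factor of iron deficiency, with 3 and 2 reads in low+P against 6, 12 and 14 reads in low P, 5.90-fold lower by summed reads (2.28 to 19.4, counting error only). The iron transporter IRT1 and the reductase FRO2 followed the root hair genes, with 4.88 and 9.94 CPM in low+P A and 27.8 and 26.5 CPM in low P C, and at most 0.319 CPM in the other 3 libraries. Of 15 nitrogen genes 13 were lower, with a median of -0.34, which was 0.54 without low P C, and 0 had an unadjusted p below 0.05. NIA1, a nitrate reductase, had 831 and 155 CPM in low+P roots, against 129, 164 and 2209 CPM in low P, so that each group held a library far above the others. Of 11 zinc genes 8 were lower, the median was -0.18, and for 1 the unadjusted p was below 0.05. This was HMA2 (AT4G30110), a zinc pump that loads the xylem, with 7.85 and 6.88 CPM in low+P roots, against 17.9, 14.8 and 16.3 CPM in low P (log2 fold change -1.13, SE 0.382). The libraries of a group lay close together for HMA2, and the gap between the groups exceeded the spread within them. Of 11 sulfur genes 6 were higher and 5 lower, with a median of 0.11, which was 0.41 without low P B and -0.35 without low+P A.

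Touch, wounding and early defence genes lay mostly higher in low+P, with no call. Of 16 tested rapid stress and touch genes 14 lay higher in low+P and their median was 0.51, 2 at an unadjusted p below 0.05, both higher, and 1 whose groups did not overlap. AT5G51190, an ethylene response factor, had 29.5 and 12.9 CPM in low+P roots, against 7.34, 7.93 and 9.63 CPM in low P (log2 fold change 1.36, SE 0.541), and overlaps AT5G51180 on the opposite strand. TCH3 (AT2G41100), a calmodulin-like protein that touch induces, had 187 and 69.5 CPM in low+P roots, against 23.3, 73.5 and 60.3 CPM in low P (1.32, SE 0.559). TCH3 overlaps AT2G41105 and AT2G09220 on the opposite strand. For both, low+P A was well above low+P B, and the median of the list was 0.02 without low+P A and 0.99 without low+P B.

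Salicylic acid defence genes gave 8 higher and 7 lower of 15, a median of 0.21 and 1 member at an unadjusted p below 0.05. The sign of this median turned with single libraries, at 0.60 without low P B and -0.18 without low+P B. WRKY70 (AT3G56400), a transcription factor of salicylic acid responses, had 24.1 and 17.7 CPM in low+P roots, against 6.38, 11.5 and 15.4 CPM in low P (log2 fold change 0.94, SE 0.379), and the groups did not overlap. Jasmonate genes gave 15 lower of 18 with a median of -0.30, and camalexin and indole glucosinolate genes 10 lower of 15 with a median of -0.20, and neither list had a gene with an unadjusted p below 0.05. The groups did not overlap for 3 jasmonate genes below (16.7%) and 1 above (5.56%), beside 6.71% and 5.55% of all genes. Suberin genes gave 9 lower and 7 higher of 16, with a median of -0.01, and the groups did not overlap for 2 below and 1 above. Of these FAR4 (AT3G44540), a fatty acid reductase that makes alcohols of suberin, had 17.3 and 18.8 CPM in low+P roots, against 29.7, 32.1 and 34.7 CPM in low P (log2 fold change -0.81, SE 0.359). FAR4 overlaps AT3G06845 on the opposite strand. Like HMA2, it separated the groups with little spread within them.

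Hypoxia genes gave 9 higher of 13, with a median of 0.39, heat shock genes 6 higher of 11, with 0.10, and genes of abscisic acid and drought 8 higher and 11 lower of 20, with -0.13. The abscisic acid and drought genes had a median of 1.11 in Col-0, and the median difference of the responses was -1.02, with 0 of the 20 at an adjusted p below 0.1 (edgeR, Benjamini-Hochberg adjustment). Clock genes gave 8 higher and 8 lower of 16. The morning genes CCA1 and LHY had 8.02 and 35.3 CPM and 8.37 and 29.8 CPM in low+P roots, against 69.8, 7.93 and 78.1 CPM and 53.3, 11.9 and 77.4 CPM in low P. They thus varied several fold within each group, and pots were harvested in random order, with no time given per library. Photosynthesis genes gave 21 higher of 23, with a median of 0.68, none at an unadjusted p below 0.05. LHCB1.3, a light-harvesting protein, had 67.1 and 48.4 CPM in low+P roots, against 17.2, 67.4 and 17.8 CPM in low P, so that low P B was as high as low+P, and the median of the list was 1.62 without low P B.

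**Figure D3:**
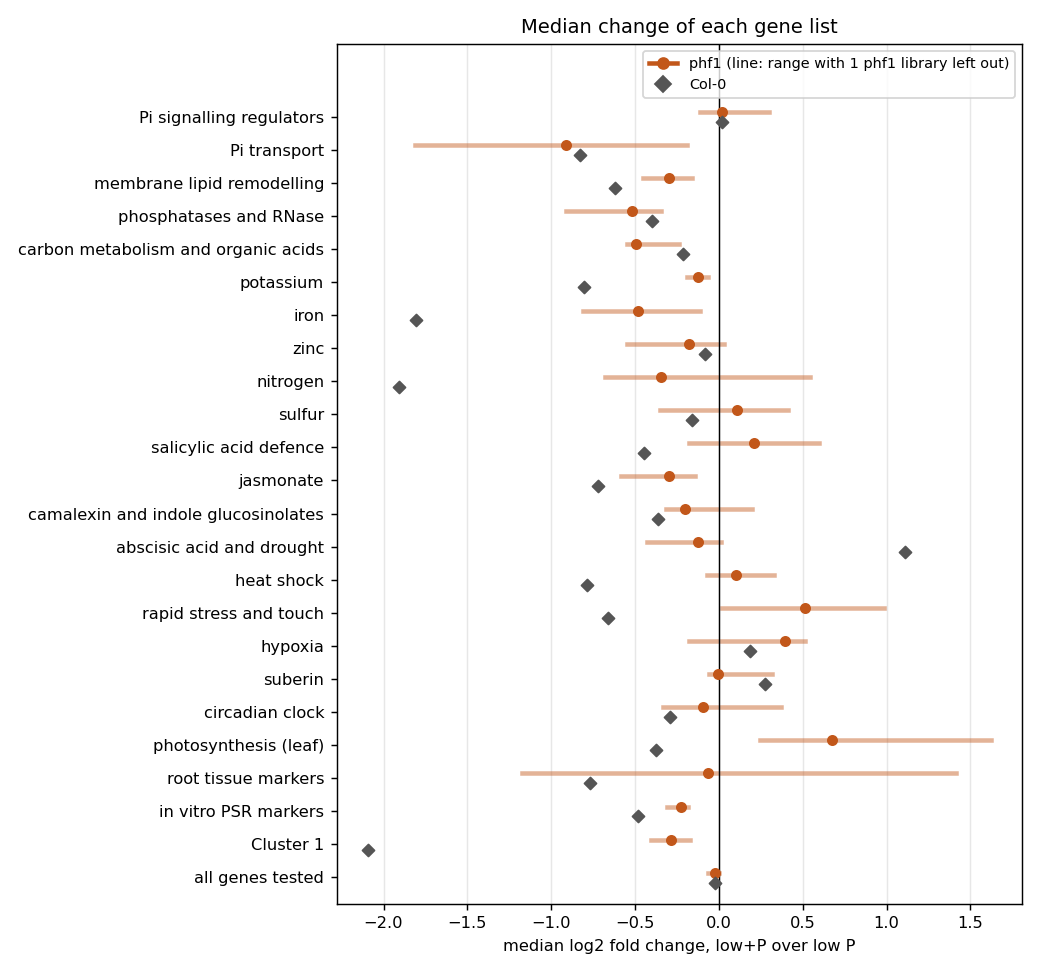
Median log2 fold change (low+P over low P) of each gene list, for phf1 (circles, with a line over the range of values when each phf1 library was left out) and Col-0 (diamonds). The in vitro PSR markers lie at -0.23 in phf1 with a narrow range of -0.31 to -0.18, whereas the line of the root tissue markers spans -1.17 to 1.41, and Cluster 1 lies at -0.29 in phf1 and -2.09 in Col-0. Cluster 1 was defined on these libraries as high in Col-0 low P only, so this gap is not independent evidence.

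Among all genes, those with the smallest p and groups that did not overlap were examined, with a mean of at least 2 CPM over the 5 libraries. They were ranked by p, so that their p describes the top of the table, and the adjusted p of each was 1. Of the 8 that were higher in low+P, AT2G05350, which encodes an uncharacterized protein, had 28 and 28 reads in low+P, against 0, 3 and 0 reads in low P. It was 20.2-fold higher by summed reads (6.58 to 101, counting error only), and its fitted log2 fold change was 4.08 (SE 1.11), and its p was the smallest of all genes. The other phf1 libraries, of medium and high P, had between 0 and 1.21 CPM of it, and Col-0 had 1.21 and 1.80 CPM in low+P, so that 4.88 and 5.84 CPM in phf1 low+P stood above them. NAC075 (AT4G29230), a NAC transcription factor, had 19.9 and 17.9 CPM in low+P roots, against 10.2, 8.65 and 9.81 CPM in low P (1.0, SE 0.293). AT1G12080, annotated as a vacuolar calcium-binding protein, had 141 and 55.5 CPM in low+P roots, against 9.89, 7.93 and 23.4 CPM in low P (2.83, SE 0.884). The remaining 5 were AT3G19080 (SWIB domain), AT2G43535 (above), MEE4 (a GRIM-19 protein), UBQ8 (ubiquitin) and AT1G57660 (translation protein SH3-like), with log2 fold changes of 1.28, 1.4, 0.74, 1.37 and 0.77. Of the 50-base stretches of AT1G57660, 29.5% also occur elsewhere in the genome, so its reads may be shared with a copy. MEE4 overlaps AT1G04625 on the same strand.

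Of the 8 that were lower in low+P, AT5G42150, a glutathione S-transferase, had 11.3 and 11.9 CPM in low+P roots, against 22.6, 26 and 21.1 CPM in low P (log2 fold change -0.97, SE 0.274). TCP2 (AT4G18390), a TCP transcription factor, had 22.7 and 19.2 CPM in low+P roots, against 30.0, 39.3 and 43.1 CPM in low P (-0.81, SE 0.242). GLR5 (AT2G32400), a glutamate receptor-like channel, had 9.07 and 6.68 CPM in low+P roots, against 18.2, 16.6 and 18.0 CPM in low P (-1.14, SE 0.344). They were chosen for groups that did not overlap. For AT5G42150 and GLR5 the gap between the groups was wider than the range within either, whereas for TCP2 the low P libraries ranged more widely than the gap. GLR5 overlaps AT2G32390 on the same strand. The remaining 5 were AT3G53940 (mitochondrial carrier), MPK19 (a MAP kinase), PUX4 (UBX domain), AT3G15300 (VQ motif) and RER1 (above), with log2 fold changes of -1.08, -0.70, -0.94, -1.11 and -0.99. None of these 16 belongs to the lists on phosphate by role, and AT2G43535 and RER1 belong to the PSR markers and Cluster 1.

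**Figure D4:**
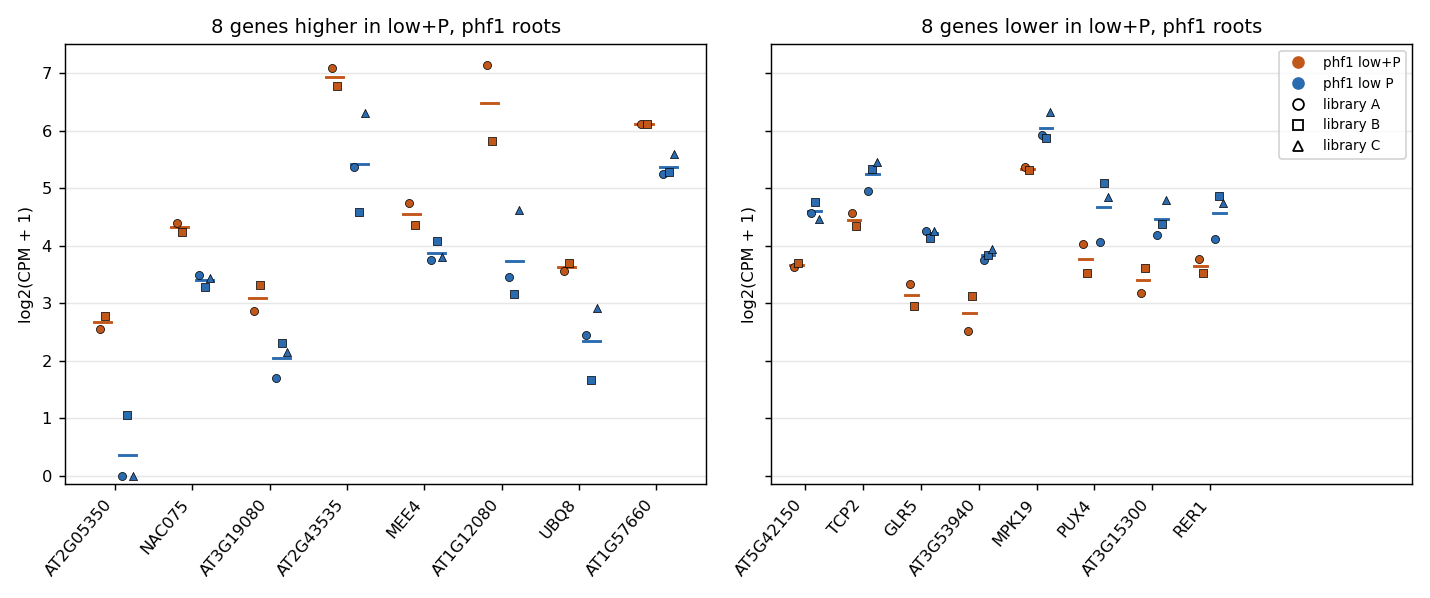
Level as log2(CPM + 1) of the 8 genes higher (left panel) and the 8 genes lower (right panel) in low+P with the smallest p, in each phf1 library, with low+P in orange left of low P in blue and bars at the mean of the log2 values. The genes were chosen for groups that do not overlap, and none had an adjusted p below 1.

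The response of phf1 was then set against that of Col-0 in the same fit, as the log2 fold change in phf1 minus that in Col-0. After Benjamini-Hochberg adjustment of the edgeR p-values, 0 genes differed at an adjusted p below 0.1 (0%), with a smallest adjusted p of 0.731. Without adjustment 734 genes (3.9%) had a p below 0.05, of which 329 (1.75% of all genes tested) were higher in phf1. DESeq2's Wald test of the same difference called 16 genes, 10 higher and 6 lower in phf1. The number of calls therefore depended on the tool.

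For this difference, the 3 genes in each direction with the smallest p were examined. They were drawn only from genes with a mean of at least 2 CPM over the 5 phf1 libraries. Their phf1 groups also had to be free of overlap, so the ranking was not over all genes tested. Each of these 6 genes had a larger absolute log2 fold change in Col-0 than in phf1. MEE3 (AT2G21650), a MYB-like protein, had 17.4 and 20.2 CPM in low+P phf1 roots and 24.2, 23.1 and 21.8 CPM in low P phf1 roots, whereas Col-0 had 26 and 21.6 CPM in low+P roots and 1.74, 2.45 and 0.324 CPM in low P. Among these low P and low+P libraries, only those of Col-0 low P were thus low. In the other soils, MEE3 had 7.09, 16.0 and 18.5 CPM in phf1 medium P. In phf1 high P it had 46.7, 2.12 and 1.03 CPM, so that levels as low as in Col-0 low P also occurred in phf1. The difference in log2 response was -4.24 (SE 0.62, adjusted p = 0.731 in edgeR with Benjamini-Hochberg adjustment, and 2.04e-08 in DESeq2), and its adjusted p in edgeR was 0.0581 without Col-0 low P C. NIT2 (AT3G44300), a nitrilase, had 27.6 and 23.8 CPM in low+P phf1 roots and 16.3, 18.4 and 15.6 CPM in low P phf1 roots, whereas Col-0 had 15.4 and 21.6 CPM in low+P roots and 133, 93.5 and 73.1 CPM in low P. Of the 50-base stretches of NIT2, 5.05% occur elsewhere in the genome. The difference was 3.08 (SE 0.565, adjusted p = 1 in edgeR, 0.00168 in DESeq2).

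The remaining 4 genes of this rule were AT1G19020 and AT4G37520, a peroxidase, above Col-0, and CYP708A3 and AT2G26690 below it. AT1G19020 had 9.94 and 6.26 CPM in low+P phf1 roots and 3.83, 5.05 and 2.00 CPM in low P phf1 roots, whereas Col-0 had 3.78 and 2.70 CPM in low+P roots and 17.4, 25.1 and 9.38 CPM in low P. It was higher in low+P in phf1 and lower in Col-0, by log2 fold changes of 1.2 and -2.36. CYP708A3, a cytochrome P450, and AT2G26690, a transporter of the major facilitator superfamily, had log2 fold changes of -0.88 and -0.97 in phf1 and 3.31 and 2.48 in Col-0. NIT2, AT1G19020 and AT4G37520 are members of Cluster 1, which was chosen on these libraries. AT1G19020 overlaps AT1G19025 on the same strand and AT2G26690 overlaps AT2G26692 on the opposite strand.

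**Figure D5:**
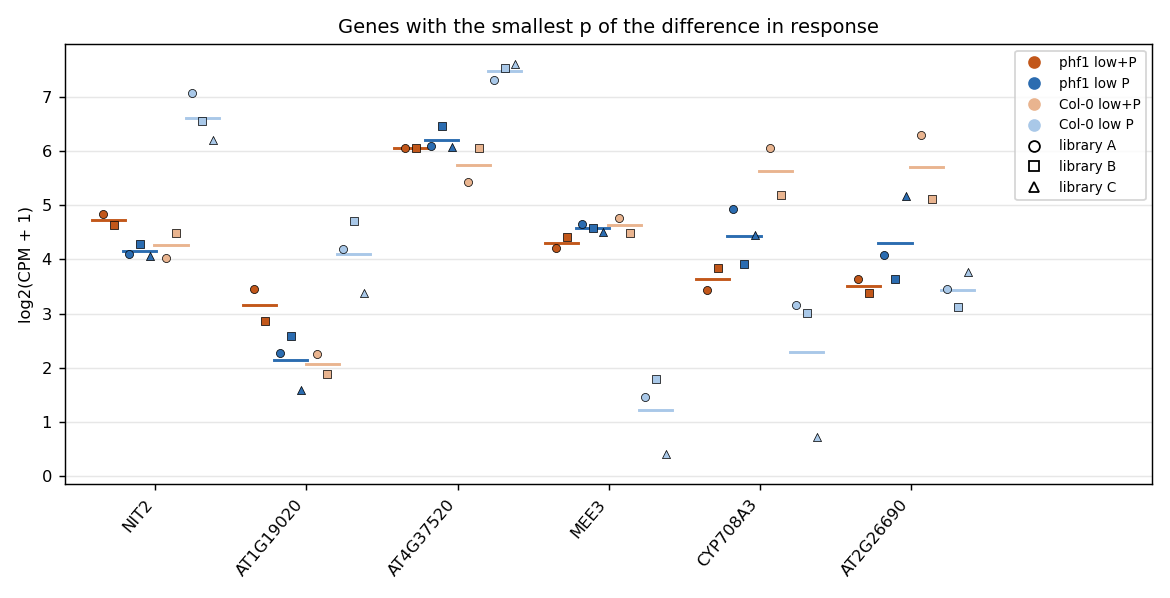
Level as log2(CPM + 1) in each library of phf1 low+P, phf1 low P, Col-0 low+P and Col-0 low P, from left to right for each gene, of the 6 genes with the smallest p of the difference in response. The genes were chosen among those with a mean of at least 2 CPM over the 5 phf1 libraries and non-overlapping phf1 groups. For MEE3 the Col-0 low P libraries lie at 0.324 to 2.45 CPM, below all others shown, and for NIT2 at 73.1 to 133 CPM, above all others shown.

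For the members described above, the comparison with Col-0 gave the following. PHT1;8 differed by -2.61 (SE 1.45) and PHO2 by 0.28 (SE 0.506), both with an adjusted p of 1 in edgeR. HMA2 had a log2 fold change of 0.26 in Col-0, and the difference was -1.4 (SE 0.525, adjusted p = 1). TCH3 and AT5G51190 were lower in low+P in Col-0, by log2 fold changes of -1.34 and -1.01, and the differences were 2.66 (SE 0.813) and 2.37 (SE 0.78), each with an adjusted p of 1. All 16 rapid stress and touch genes had a positive difference, 6 of them with an unadjusted p below 0.05, where 1.75% of all genes passed in that direction. In Col-0, 15 of these 16 genes fell after P addition, 4 of them at an unadjusted p below 0.05. The list median was -0.66 in Col-0 and 0.51 in phf1, and the median difference was 0.90. These differences thus reflect the fall in Col-0 as well as the values in phf1. Among the 5 phf1 libraries the list was highest in low+P A, and its median within phf1 was 0.02 without that library.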

How the data were processed

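Poly(A) RNA from 1 root system per replicate was sequenced as single-end, non-stranded libraries. The authors deposited whole-number read counts per gene on TAIR10, and their processing notes name bcl2fastq 2.20.0, FastQC 0.11.7, Trimmomatic 0.36, HISAT2 2.1.0 and featureCounts. Counts were used as deposited. For RNA extraction the study's methods name a silica column kit, whereas the labels cite a published protocol.

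Groups came from the labels. The columns carry a group name but no replicate number or plot, so libraries could not be tied to plots. Each replicate was a separate root system, and p-values measure the spread between these libraries.

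Genes passing filterByExpr were fitted with edgeR 4.0.16 (R 4.3.3, TMM, quasi-likelihood, prior count 0.125, Benjamini-Hochberg, threshold 0.1) on the 13 low P and low+P libraries in 6 groups. DESeq2 1.42.0 and limma 3.58.1 (voom), other libraries, normalization, filters and leaving out each library were alternatives. The script was tested on simulated data. The library labelled phr1 phl1 low+P had PHR1 at the level of other genotypes and was left out in an alternative chosen after seeing the data. Gene symbols, positions and promoter sequence came from RefSeq TAIR10.1, which matched 26719 of 27206 genes. Intervals of read ratios are exact and cover counting error only, since reads carry no molecular identifiers.

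The comparison and the gene lists were chosen with earlier results of these data known. Named genes were PHF1, PHR1 and PHL1. Members of the phosphate and potassium lists were added if their unadjusted p was below 0.05, plus the 2 smallest p of each list. Of the other lists, up to 3 members with such a p were added. Over all genes came the 8 higher and 8 lower with the smallest p, a mean of at least 2 CPM and non-overlapping groups. The difference from Col-0 gave 3 genes each way by its smallest p, under the same conditions on mean CPM and on overlap in phf1. Other genes were named for their role or after their values were seen.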

Additional observations from a re-analysis of the deposited data

How the results depend on the processing

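No gene was called for low+P against low P in phf1 under any of the alternatives run, which changed the tool, the libraries in the fit, the normalization, the filter, the threshold or left out a library. The number at an unadjusted p below 0.05 was 154 to 215 in the settings that kept all phf1 libraries and 86 to 457 when each phf1 library was left out, with 457 without low P A, 400 without low P C and 86 without low+P A. For the difference between phf1 and Col-0, DESeq2 called 16 genes, and leaving out each library gave 0 to 1. The cause was not tested. No paired analysis was possible because the columns carry no replicate number or plot, and the fit with the plot as a block was not run.

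List medians with each phf1 library left out ran from -1.81 to -0.19 for Pi transport, -0.11 to 0.30 for Pi signalling, -0.91 to -0.35 for phosphatases, -0.55 to -0.24 for carbon metabolism, -0.81 to -0.11 for iron, -0.35 to 0.41 for sulfur, -0.18 to 0.60 for salicylic acid, -0.33 to 0.37 for clock genes, -0.55 to 0.033 for zinc, -0.68 to 0.54 for nitrogen, -0.58 to -0.14 for jasmonate, -0.32 to 0.19 for camalexin, -0.43 to 0.012 for abscisic acid, -0.070 to 0.33 for heat shock, 0.016 to 0.99 for rapid stress, -0.18 to 0.51 for hypoxia, -0.057 to 0.31 for suberin, 0.25 to 1.62 for photosynthesis, -1.17 to 1.41 for root tissue markers and -0.41 to -0.17 for Cluster 1. Log2 fold changes of named genes kept their direction in 658 of the values computed and reversed in 7. The stricter threshold reused the main fit, so its values were bound to keep their direction. PHF1, with a log2 fold change of -0.0003, was not allowed to count as reversed. Many of these genes were chosen for a small p or for groups that did not overlap. The count therefore does not measure how stable the direction of other genes was. With each library left out, PHR1 ran from -0.043 without low P C to 0.082 without low+P B, PHL1 from -0.12 without low P C to 0.42 without low P A, ALMT1 from -4.24 to 2.13 and HAK5 from -6.29 to 2.1, both positive without low P C, and MYB62 from -4.45 to 0.00, the last without low P C. With 2 and 3 libraries of 2773753 to 5734640 reads, genes of a few reads, such as PHT1;8, rest on single reads in low+P.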

Other observations

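The values of 3 genes of aliphatic glucosinolate synthesis, all members of Cluster 1 and chosen after their values were seen, are given as a description. The other genes of the pathway were not counted. BCAT4, the aminotransferase that starts the chain from methionine, had 39.1 and 63.8 CPM in low+P roots, against 62.8, 129 and 214 CPM in low P (log2 fold change -1.33, and -1.88 in Col-0), and its groups overlapped. BAT5, a carrier of the same pathway, had 8.55 and 12.9 CPM in low+P roots, against 14.4, 38.9 and 43.1 CPM in low P (-1.53, and -2.03 in Col-0), and its groups did not overlap. MAM1, a synthase that elongates the chain, had 63.1 and 63.4 CPM in low+P roots, against 65.1, 108 and 147 CPM in low P (-0.71, and -2.35 in Col-0). In edgeR with Benjamini-Hochberg adjustment the adjusted p of each was 1 in phf1.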
